A study of Mus musculus with 7 samples.

Results

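Cytochrome P450 genes were described across 7 mouse lung RNA sequencing libraries. Members were all genes whose symbol consists of Cyp, a number, a letter and further digits, plus Cyp51, which gave 92 of the 22447 genes in the files. Another 5 P450 pseudogenes were left out, and 4 symbols that end in a letter or carry a letter pair (Cyp2ab1, Cyp3a41b, Cyp4a12a and Cyp4a12b) fall outside this rule. The groups were 3 lung tumors from the EZH2 overexpression genotype (OE tumors), 2 lungs labelled normal of the same genotype (OE normal lung) and 2 normal lungs of wild-type genotype (WT lung). EZH2 is the catalytic subunit of Polycomb repressive complex PRC2, which methylates histone H3. Neither the transgene's promoter nor the age and strain of the mice is stated in the labels. The source is given as lung tissue, but the growth text describes cultures of minced tumor nodules and human cell lines, so whether the tumor RNA came from tissue or from culture is not stated. Nothing in the labels ties a replicate to its own animal, and a p-value here reflects the spread among libraries, which may be technical.

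P450 enzymes are heme-containing monooxygenases that insert an oxygen atom into their substrates. Most sit in the endoplasmic reticulum and take electrons from P450 oxidoreductase (Por), and a smaller mitochondrial set takes them through ferredoxin (Fdx1) and ferredoxin reductase (Fdxr). Families CYP1 to CYP3 mainly oxidize foreign compounds, CYP4 enzymes hydroxylate fatty acids and eicosanoids, and the remaining families act mostly on sterols, steroids, bile acids, vitamin D or retinoids. In mouse lung the non-ciliated club cells of the airways are the main site of xenobiotic P450s, among them Cyp2f2, the enzyme that activates naphthalene to a club cell toxicant.

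Many members have near-identical neighbours, and 2 groups of copies matter for the values below. Over the coding sequence Cyp2a4 and Cyp2a5 were 98.45% identical, and pairs among Cyp2c40, Cyp2c67, Cyp2c68 and Cyp2c69 were 96.54% to 98.1% identical in the GENCODE transcripts of build GRCm38. For Cyp2c40, whose transcript has 1560 coding bases against 1473 in each of its copies, only the last 1473 coding bases were compared. The first 120 of the compared bases are shown for each because they show how little sequence tells the copies apart. They begin at the start codon, except in Cyp2c40, where they begin inside the annotated coding sequence. Capitals mark the positions at which the copies of a group differ. In the Cyp2a pair, on the plus strand of GRCm38 at chr7:26835364-26835483 (Cyp2a5) and chr7:26307218-26307337 (Cyp2a4), 1 of 120 positions differs.
Cyp2a5: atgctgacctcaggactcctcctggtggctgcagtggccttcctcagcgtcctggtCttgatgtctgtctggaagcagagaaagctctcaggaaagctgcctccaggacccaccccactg
Cyp2a4: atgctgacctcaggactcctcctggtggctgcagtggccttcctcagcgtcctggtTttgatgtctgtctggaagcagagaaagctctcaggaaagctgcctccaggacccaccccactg
In the Cyp2c group, on the minus strand at chr19:39812603-39812722 (Cyp2c40), chr19:39648911-39649030 (Cyp2c67), chr19:39740922-39741041 (Cyp2c68) and chr19:39886588-39886707 (Cyp2c69), 7 of 120 positions differ.
Cyp2c40: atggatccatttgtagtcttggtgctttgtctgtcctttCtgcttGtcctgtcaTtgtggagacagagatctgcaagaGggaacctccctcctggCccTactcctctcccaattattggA
Cyp2c67: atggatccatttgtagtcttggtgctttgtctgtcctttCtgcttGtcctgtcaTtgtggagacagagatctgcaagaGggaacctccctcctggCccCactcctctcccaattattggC
Cyp2c68: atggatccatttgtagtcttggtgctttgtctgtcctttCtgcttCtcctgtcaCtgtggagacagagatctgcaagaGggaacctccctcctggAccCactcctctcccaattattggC
Cyp2c69: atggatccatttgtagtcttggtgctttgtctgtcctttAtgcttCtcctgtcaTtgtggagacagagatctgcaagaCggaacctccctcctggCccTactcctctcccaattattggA
Of all 50-base stretches of the Cyp2c40 transcript, 72.12% also occurred in a transcript of another gene, as did 54.79% for Cyp2c69, 52.76% for Cyp2c67, 43.28% for Cyp2c68, 40.84% for Cyp2a5 and 38.01% for Cyp2a4. The split of reads within each of these groups is therefore uncertain, whereas no such stretch was shared for Cyp2f2, Cyp2s1, Cyp1b1, Cyp26b1 or Cyp27a1. For Cyp2b13 27.27% and for Cyp4f16 26.54% of the stretches also occurred in another gene, so part of their reads may be shared.

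Each library listed FPKM (fragments per kilobase of transcript, scaled to the mapped reads of the library), so levels can be compared between genes. FPKM summed to between 405166 and 503550 per library, and read totals are not known. The tumors had 12028 to 12625 genes at 1 FPKM or more, and the normal lungs 13203 to 13567. Ezh2, the check of the genotype, was at 8.48, 23.5 and 22.6 FPKM in OE tumors 1 to 3, 10.2 and 11.5 FPKM in OE normal lungs and 3.72 and 2.58 FPKM in WT lungs. It was called higher in OE tumors than in WT lung (a log2 difference of 2.10 with SE 0.43, limma adjusted p = 0.0118) but not in OE normal lung against WT lung (1.53, SE 0.47, limma adjusted p = 0.406). Some exact zeros are doubtful: Hmgcs1, a cholesterol synthesis gene, was listed at 0 in all 7 libraries, and the club cell marker Scgb1a1 was listed at 0 in all 4 normal lungs but between 56.3 and 2227 FPKM in the tumors, and the surfactant gene Sftpc was listed at 0 in tumors 2 and 3 alone. A value of 0 is therefore given below only as listed. In tissue RNA, fewer cells of a type and less RNA per cell cannot be told apart.

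The tumors held far less P450 transcript than the normal lungs. The 92 members summed to 262 FPKM in tumor 1, 318 FPKM in tumor 2 and 319 FPKM in tumor 3, against 2427 and 1905 FPKM in OE normal lungs and 2220 and 2818 FPKM in WT lungs. No tumor came near any normal lung, while the OE normal and WT sums overlapped. Cyp2f2 made up 12.8%, 3.86% and 6.74% of the P450 sum in tumors 1 to 3, against 66.7% and 57.4% in OE normal lungs and 61.6% and 55.0% in WT lungs. The difference was not that of Cyp2f2 alone: without it the sums were 229, 306 and 297 FPKM in the tumors, against 808 and 812 FPKM in OE normal lungs and 852 and 1268 FPKM in WT lungs. The 5 highest members of each library made up 70.3%, 68.3% and 65.2% of its P450 sum in tumors 1 to 3. Their share was 91.1% and 89.3% in OE normal lungs and 91.9% and 91.3% in WT lungs. The sums therefore describe mainly a few abundant members and not the family as a whole. The leading member also changed, with Cyp1b1 first in tumor 1, Cyp2c40 first in tumors 2 and 3 and Cyp2f2 first in all 4 normal lungs. Members at 1 FPKM or more numbered 21, 19 and 23 in the tumors, 27 and 32 in OE normal lungs and 28 and 31 in WT lungs.

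**Figure D1:**
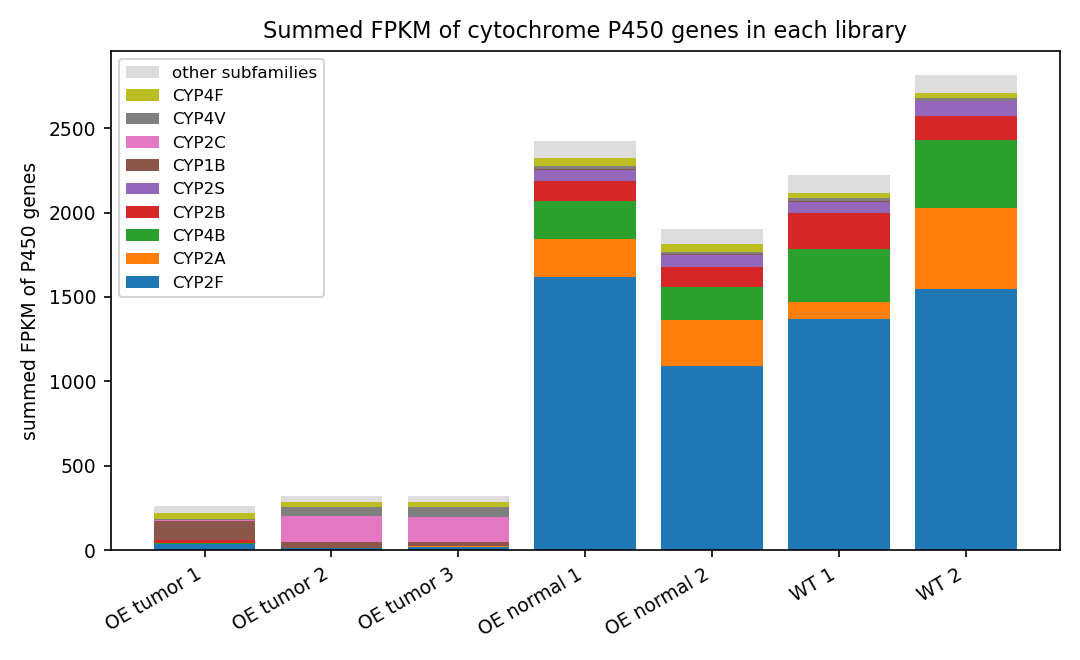
Summed FPKM of all 92 P450 genes in each library (vertical axis), stacked by subfamily, with the tumors at the left. The tumors stand between 262 and 319 FPKM and the normal lungs between 1905 and 2818 FPKM, and the CYP2F block fills more than any other block in each normal lung.

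Tests were run with limma on log2(FPKM + 1) over the 14057 genes that reached 1 FPKM in 2 or more libraries, and a gene is termed called when its Benjamini-Hochberg adjusted p was under 0.05. This minimum was reached by 35 members. In OE tumors against OE normal lung 23 of the 35 were called, 3 higher and 20 lower, where 38.1% of all genes tested were called, 13.1% higher and 24.9% lower. The median log2 difference was -1.06 over the 35 members and -0.11 over all genes tested. In OE tumors against WT lung 24 were called, 5 higher and 19 lower, where 38.2% of all genes were called, 15% higher and 23.2% lower, and the medians were -1.02 and -0.06. The count of 24 fell without WT lung 2, which leaves 1 WT lung. The share of all genes called in that fit is not given here, so the fall is no result about the members. Both comparisons use the same 3 tumors. Of the 35, 5 members reached 1 FPKM only in tumors and 11 only in normal lungs, and these passed the minimum through the group where they were high, so the counts over the 35 are a description. Among the 19 members that reached 1 FPKM in tumors and in normal lungs, 2 were called higher and 11 lower against OE normal lung (of 12601 genes selected in the same way 33.1% were called, 13.6% higher and 19.5% lower), and 2 were called higher and 10 lower against WT lung (34% of these genes, 15.7% higher and 18.4% lower). The groups did not overlap for 7 members higher and 23 lower in tumors against OE normal lung (60.9% of all genes tested, 25% higher and 35.9% lower), and for 9 higher and 22 lower against WT lung (63.9%, 28.9% higher and 35% lower). For a single gene the exact permutation test (two-sided) has 10 relabellings of 3 against 2 libraries and cannot give a p under 0.2.

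**Figure D2:**
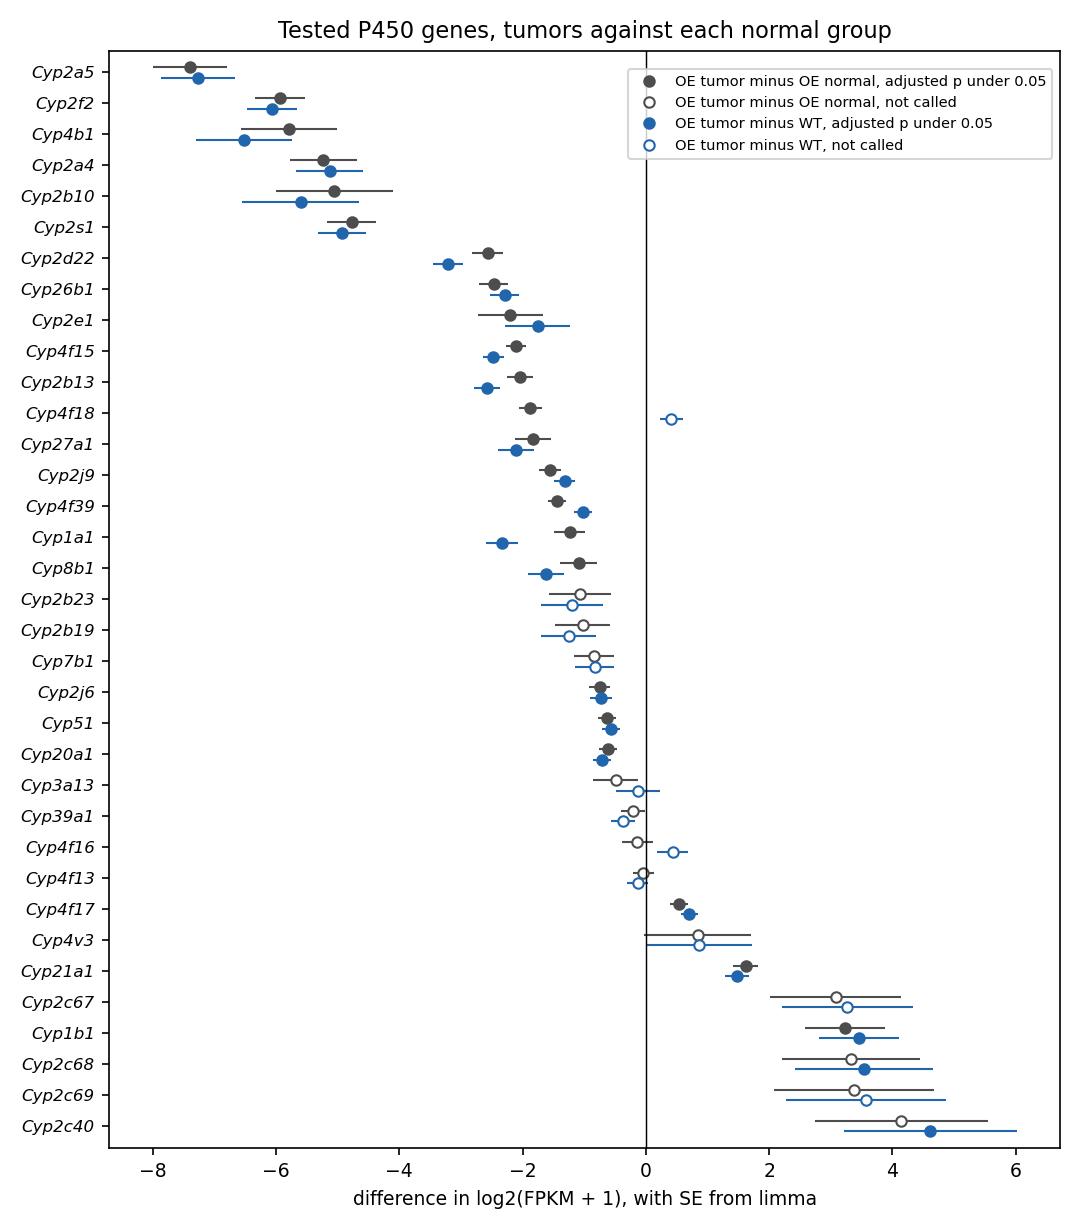
Difference in log2(FPKM + 1) of OE tumors against OE normal lung (gray) and against WT lung (blue) for the 35 tested members, ordered by the gray points, with SE from limma as bars and filled points for adjusted p under 0.05. Cyp2a5 lies at the low end with -7.40 and -7.26, and the Cyp2c genes with Cyp1b1 lie at the high end with wide SE bars.

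Cyp2f2, Cyp4b1 and Cyp2s1, which act on foreign compounds among other substrates, were called lower in the tumors in both comparisons. Cyp2f2 was at 33.7, 12.3 and 21.5 FPKM in OE tumors, against 1619 and 1093 FPKM in OE normal lungs and 1368 and 1550 FPKM in WT lungs. Every tumor was far below every normal lung, and mean FPKM in tumors was 60.3-fold lower than in OE normal lung and 64.9-fold lower than in WT lung. The log2 difference was -5.93 (SE 0.41, limma adjusted p = 0.000336) against OE normal lung and -6.06 (SE 0.41, limma adjusted p = 0.000274) against WT lung. Cyp4b1, which hydroxylates fatty acids and activates lung toxicants such as ipomeanol, was at 10.7, 0.578 and 2.07 FPKM in OE tumors, against 228 and 196 FPKM in OE normal lungs and 310 and 402 FPKM in WT lungs. Tumor 1 kept more of it than the other tumors, yet stayed below all normal lungs (log2 difference -5.79, SE 0.78, limma adjusted p = 0.00248 against OE normal lung and -6.53, SE 0.78, adjusted p = 0.00164 against WT lung). Cyp2s1, a P450 of epithelial surfaces, was at 3.47, 0.735 and 1.19 FPKM in OE tumors, against 66.8 and 71.9 FPKM in OE normal lungs and 68.3 and 87.1 FPKM in WT lungs. Its log2 difference was -4.78 (SE 0.39, limma adjusted p = 0.00049) and -4.93 (SE 0.39, adjusted p = 0.000432).

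Among the CYP2A genes, Cyp2a5, the coumarin hydroxylase that also oxidizes nicotine, had the lowest log2 difference of the 35 tested members. It was at 0.203, 0.0225 and 0.513 FPKM in OE tumors, against 187 and 228 FPKM in OE normal lungs and 86.9 and 406 FPKM in WT lungs. The tumors were at or near 0 while the WT lungs differed from each other by more than the OE normal lungs did. The log2 difference was -7.40 (SE 0.61, limma adjusted p = 0.00048) against OE normal lung and -7.26 (SE 0.61, limma adjusted p = 0.000476) against WT lung. Its near copy Cyp2a4, a steroid hydroxylase, was at 0.0484, 0 (as listed) and 0.117 FPKM in OE tumors, against 35.5 and 41.9 FPKM in OE normal lungs and 17.4 and 73.3 FPKM in WT lungs. WT lung 1 was the lowest and WT lung 2 the highest normal library for both copies, whose reads cannot be fully separated, and Cyp2a4 was called lower in tumors against OE normal lung (limma adjusted p = 0.00101) and against WT lung (0.00108). The other CYP2A members, Cyp2a12 and Cyp2a22, were listed at 0 in all tumors and stayed under 0.1 FPKM in the normal lungs.

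Of the CYP2B genes, which include drug-inducible enzymes of liver and lung, Cyp2b10 was the most abundant. It was at 12.2, 0.174 and 1.497 FPKM in OE tumors, against 110 and 113 FPKM in OE normal lungs and 207 and 128 FPKM in WT lungs. Tumor 1 was the highest tumor by a wide margin and still below every normal lung. The log2 difference was -5.06 (SE 0.95, limma adjusted p = 0.0083) against OE normal lung and -5.60 (SE 0.95, limma adjusted p = 0.00585) against WT lung. The call against OE normal lung was lost without either OE normal lung, with adjusted p up to 0.0567 over its alternatives. Cyp2b13 was at 0.473, 0.0374 and 0.121 FPKM in OE tumors, against 3.80 and 4.06 FPKM in OE normal lungs and 7.16 and 5.24 FPKM in WT lungs, and was called lower in both comparisons (limma adjusted p = 0.000938 and 0.000435). Cyp2b19 and Cyp2b23, which the rule for named genes leaves out, reached at most 0.0147 and 0.00989 FPKM in the tumors. They reached up to 3.23 and 3.41 FPKM in WT lung 2, and were not called (limma adjusted p = 0.116 and 0.142 against OE normal lung, 0.069 and 0.105 against WT lung). Both were called lower against OE normal lung with a pseudocount of 0.1, with only the compared groups fitted and without either WT lung. Against WT lung both were called lower without WT lung 1 (log2 difference -2.07 and -2.13, limma adjusted p = 0.00414 for each) and with a pseudocount of 0.1, and Cyp2b19 also with TPM rescaling. Over the alternatives the adjusted p ranged from 0.00461 to 0.328 for Cyp2b19 and from 0.00439 to 0.37 for Cyp2b23 against OE normal lung, and from 0.00414 to 0.146 and 0.309 against WT lung.

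**Figure D3:**
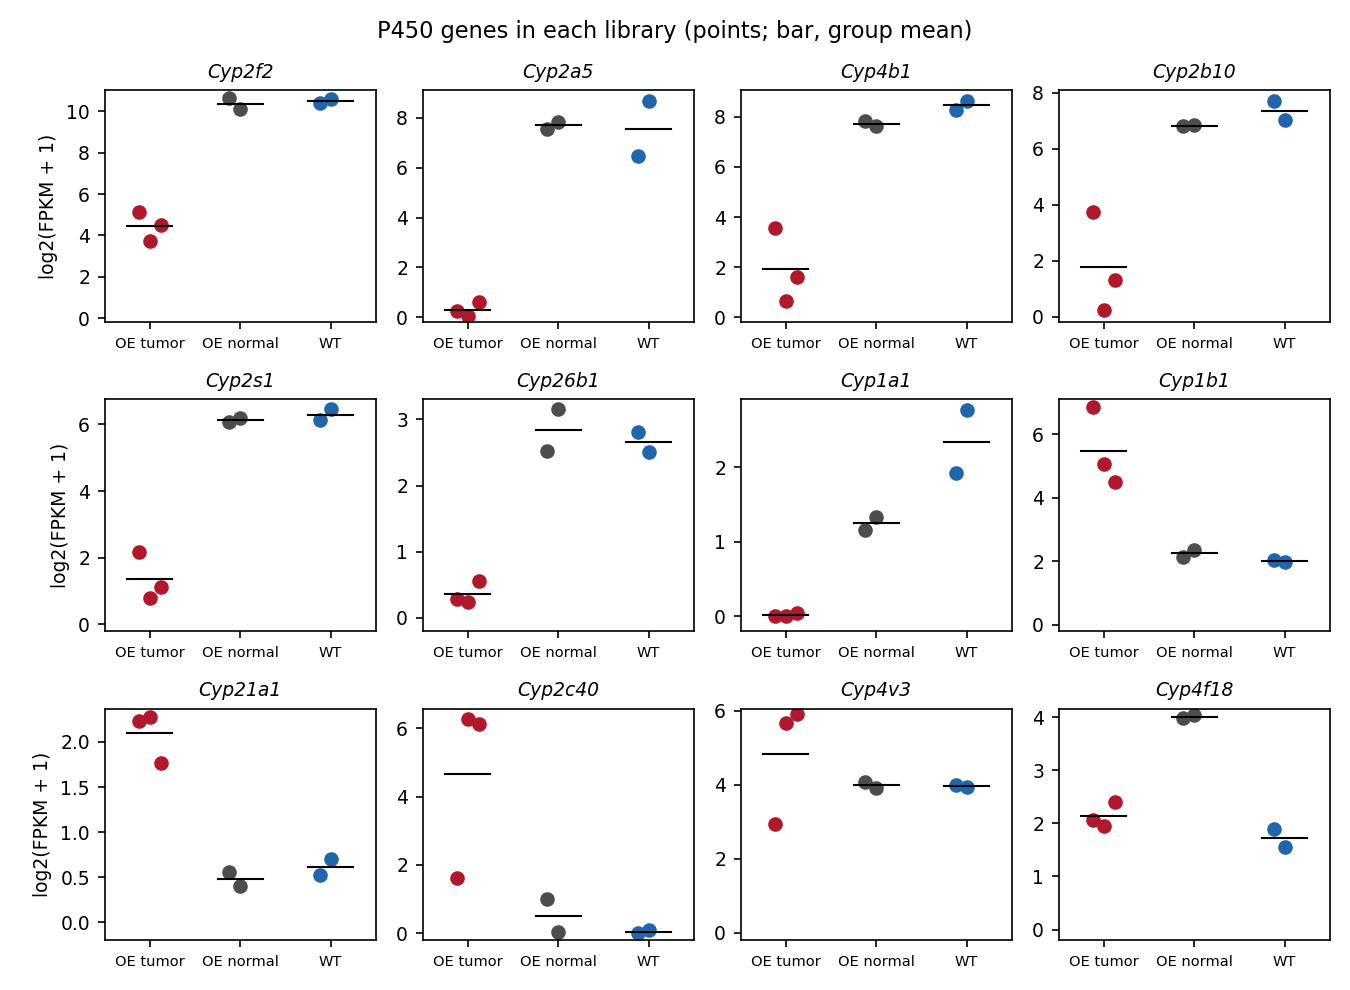
Level of 12 P450 genes as log2(FPKM + 1) (vertical axis) in each library, with OE tumors, OE normal lungs and WT lungs from left to right in every panel and a bar at the group mean. The tumors lie below all normal lungs for Cyp2f2, Cyp2a5, Cyp4b1, Cyp2b10, Cyp2s1, Cyp26b1 and Cyp1a1, above them for Cyp1b1, Cyp21a1 and Cyp2c40, on both sides of them for Cyp4v3, and between OE normal and WT lungs for Cyp4f18.

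Genes of these subfamilies lie in a cluster on chromosome 7, where the GRCm38 annotation places 13 members from Cyp2s1 to Cyp2t4 with some other genes among them. Of the 13, 8 were tested. Cyp2f2, Cyp2b10 and Cyp2s1 reached 1 FPKM in tumors and in normal lungs and were called lower in both comparisons. The other 5 tested (Cyp2a4, Cyp2a5, Cyp2b13, Cyp2b19 and Cyp2b23) passed the minimum through normal lungs only, so their negative sign is largely set by the minimum and is no result. The remaining 5 members (Cyp2b9, Cyp2g1, Cyp2a22, Cyp2a12 and Cyp2t4) were below the expression minimum. On chromosome 19 a run of 14 Cyp2c genes held 4 tested members, Cyp2c67, Cyp2c68, Cyp2c40 and Cyp2c69, which are adjacent, and 10 members below the minimum. These 4 passed it through tumors only, so their positive sign is likewise set by it.

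**Figure D4:**
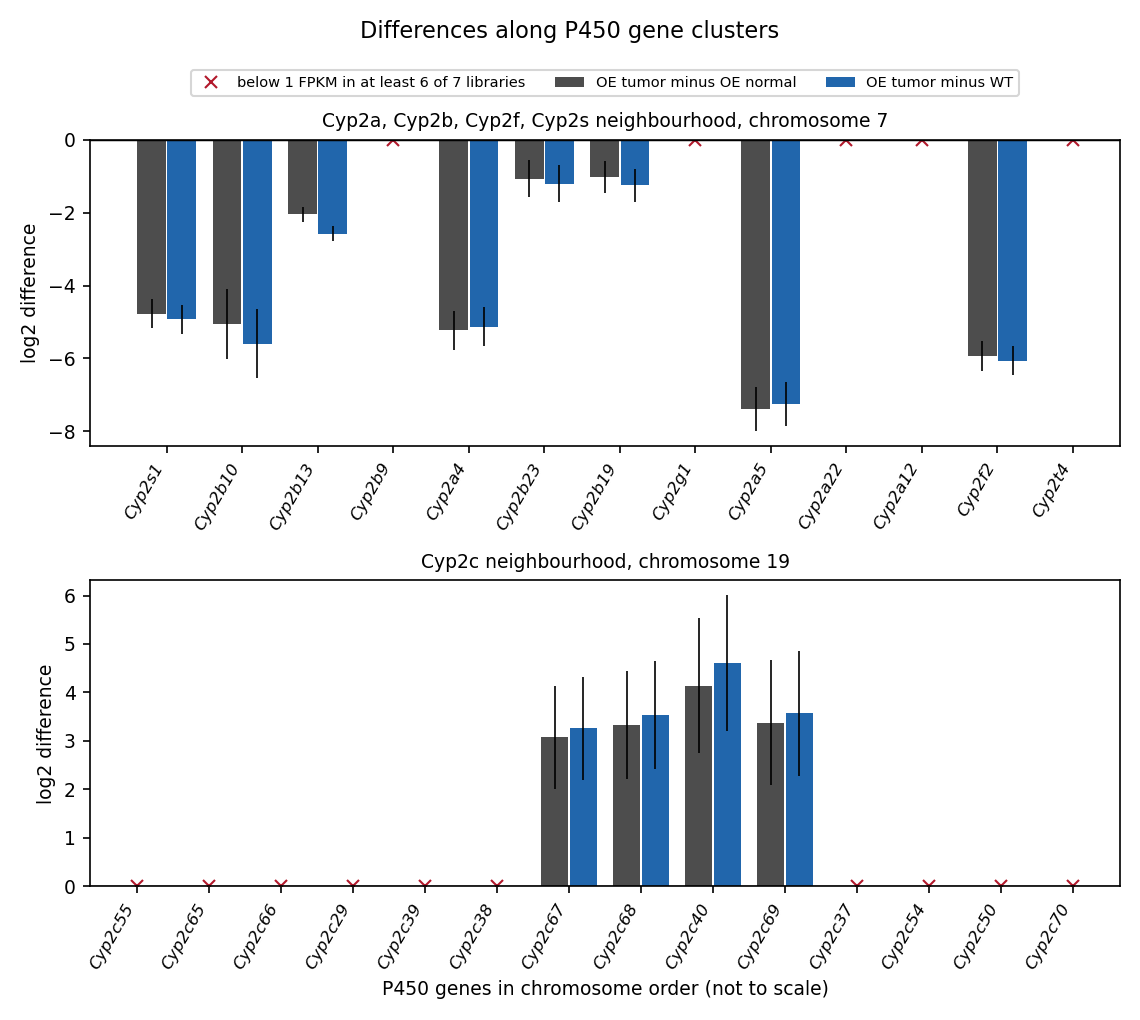
Log2 difference of OE tumors against OE normal lung (gray bars) and WT lung (blue bars) with SE from limma, for P450 genes in their order along chromosome 7 (top) and chromosome 19 (bottom). Crosses mark members below the expression minimum, the 8 tested genes of the upper panel point down, and the 4 tested Cyp2c genes point up. The expression minimum, passed through normal lungs only by 5 of the 8 and through tumors only by the 4, largely set those signs.

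Airway cell markers differed by list. All 9 ciliated cell markers were called lower in OE tumors in both comparisons, with summed levels of 11.8 to 22.7 FPKM in OE tumors, 386 to 444 FPKM in OE normal lungs and 495 to 556 FPKM in WT lungs. Of 8 club cell markers 7 were tested, and 3 were called lower in each comparison. Among them the secretoglobin Scgb3a2 was at 14.2, 47.3 and 98.9 FPKM in OE tumors, against 544 and 664 FPKM in OE normal lungs and 1056 and 797 FPKM in WT lungs. The club cell list summed to between 2325 and 17272 FPKM in OE tumors, 1366 and 1510 FPKM in OE normal lungs and 1076 and 1467 FPKM in WT lungs. These sums cannot be compared between tumors and normal lungs, because they include Scgb1a1, whose zeros in every normal lung are doubtful. The secretory protein gene Bpifa1, named here because it makes up most of the highest sums, was at 28.7, 12910 and 15750 FPKM in OE tumors, against 449 and 216 FPKM in OE normal lungs and 90.5 and 20.1 FPKM in WT lungs. Tumors 2 and 3 were far above the other 5 libraries, and Bpifa1 was not called (limma adjusted p = 0.494 and 0.169). Scgb1a1, with its listed zeros in normal lung, was the 1 club cell marker called higher in each comparison, and Scgb3a1 and Gsta3 were not called. Upk3a was listed at 0 in all 3 tumors. Of 9 alveolar type 2 cell markers 7 were called higher in each comparison. The surfactant gene Sftpc, 1 of the other 2, was at 35940 FPKM in tumor 1 and listed at 0 in tumors 2 and 3, against 14320 and 10580 FPKM in OE normal lungs and 15910 and 13050 FPKM in WT lungs. By contrast, 10 of 10 endothelial markers were called lower in each. Of 9 markers each, 6 of alveolar type 1 cells and 4 of fibroblasts were called lower in each comparison. Another alveolar type 1 marker was called higher, against OE normal lung only. The part of cell composition in the P450 differences was not tested.

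Other family 2 members with a level in normal lung were also lower in the tumors. Cyp2d22, the mouse gene most often set beside human CYP2D drug-metabolizing enzymes, was at 2.66, 1.24 and 1.53 FPKM in OE tumors, against 16.9 and 13.8 FPKM in OE normal lungs and 27.5 and 21.8 FPKM in WT lungs. The groups did not overlap, and the log2 difference was -2.57 (SE 0.25, limma adjusted p = 0.00078) against OE normal lung and -3.21 (SE 0.25, limma adjusted p = 0.000393) against WT lung. Cyp2e1, which oxidizes ethanol and small solvents, was at 1.27, 0.885 and 1.03 FPKM in OE tumors, against 17.6 and 3.79 FPKM in OE normal lungs and 5.868 and 5.999 FPKM in WT lungs. OE normal lung 1 was the high library, and the calls (limma adjusted p = 0.0198 and 0.0418) were lost without tumor 2, without tumor 3, with quantile normalization and with a replicate block. The call against WT lung was also lost without either WT lung, without the filter and with Xist as a covariate, 8 of 17 alternatives in all. The highest adjusted p over the alternatives was 0.0581 against OE normal lung and 0.17 against WT lung.

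The CYP2J enzymes epoxidize or hydroxylate arachidonic acid. Cyp2j9 was at 0.438, 0.176 and 0.186 FPKM in OE tumors, against 3.27 and 2.24 FPKM in OE normal lungs and 2.17 and 2.13 FPKM in WT lungs, and was called lower in both comparisons (limma adjusted p = 0.00137 and 0.00251). Because Cyp2j9 passed the expression minimum through normal lungs only, this direction is largely set by the minimum. Cyp2j6 differed less, with 2.33, 1.77 and 1.48 FPKM in OE tumors, 4.19 and 3.39 FPKM in OE normal lungs and 3.81 and 3.56 FPKM in WT lungs. Its calls (limma adjusted p = 0.0176 and 0.0202) were lost without tumor 2, tumor 3 or either lung of the normal group compared, with quantile normalization (log2 difference -0.22 and -0.34), with a replicate block and, against WT lung, with Xist as a covariate. The highest adjusted p over the alternatives was 0.259 (quantile normalization) against OE normal lung and 0.121 (without WT lung 1) against WT lung. Of 15 tested genes of arachidonic acid metabolism, 1 was called higher and 6 lower against OE normal lung (median log2 difference -0.71), and 2 higher and 6 lower against WT lung (median 0.04). The prostaglandin-degrading enzyme Hpgd was at 6.20, 5.02 and 5.18 FPKM in OE tumors, against 391 and 219 FPKM in OE normal lungs and 239 and 392 FPKM in WT lungs. Prostacyclin synthase, Ptgis, itself an enzyme of the P450 superfamily although its symbol falls outside the rule, was at 6.40, 0.694 and 2.92 FPKM in OE tumors, against 62.7 and 45.7 FPKM in OE normal lungs and 59.5 and 64.1 FPKM in WT lungs. The cyclooxygenase genes moved in opposite directions, since Ptgs1 was called higher (log2 difference 1.04 and 1.05, limma adjusted p = 0.00201 and 0.00192) and Ptgs2 lower (-1.503 and -2.234, limma adjusted p = 0.000873 and 0.000273).

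The Cyp2c40 group formed the main P450 transcript of tumors 2 and 3. Cyp2c40 was at 2.05, 75.7 and 68.6 FPKM in OE tumors 1 to 3, against 0.993 and 0.0321 FPKM in OE normal lungs and 0 (as listed) and 0.0761 FPKM in WT lungs. Cyp2c69 was at 0.699, 31.2 and 33.0 FPKM in OE tumors, against 0.387 and 0.00823 FPKM in OE normal lungs and 0.0128 and 0.0636 FPKM in WT lungs. Cyp2c68 was at 1.13, 27.9 and 25.1 FPKM and Cyp2c67 at 0.922, 21.9 and 19.7 FPKM in OE tumors, while neither passed 0.343 FPKM in any normal lung. In each of the 4 genes tumors 2 and 3 were close to each other, tumor 1 was between 21.4-fold and 44.7-fold below the lower of them, and tumor 1 was still above every normal lung. OE normal lung 1 was the highest normal library for all 4.

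With tumor 1 so far from the other tumors, the spread was wide and the tests were close to their threshold. Against OE normal lung the log2 differences were 4.14 (SE 1.40) for Cyp2c40, 3.38 (SE 1.30) for Cyp2c69, 3.33 (SE 1.118) for Cyp2c68 and 3.08 (SE 1.06) for Cyp2c67, and none was called (limma adjusted p = 0.0606, 0.0859, 0.0595 and 0.0641). Against WT lung Cyp2c40 (4.61, SE 1.40, limma adjusted p = 0.0438) and Cyp2c68 (3.54, SE 1.118, limma adjusted p = 0.0492) were called, and Cyp2c67 and Cyp2c69 were not (limma adjusted p = 0.0539 and 0.074). Without tumor 1 all 4 were called higher against OE normal lung, with log2 differences between 4.24 and 5.67. Without tumor 2, without tumor 3, or without any of the 4 normal lungs, the calls of Cyp2c40 and Cyp2c68 against WT lung were lost, with adjusted p up to 0.17 and 0.183 over the alternatives. The 11 other CYP2C members were below the minimum, and Cyp2c70 came highest among them with 0.0389, 0.407 and 0.581 FPKM in OE tumors, against 0.0162 and 0 FPKM in OE normal lungs and 0.0133 and 0.0284 FPKM in WT lungs. Genes of the CYP2C subfamily are best known from liver. Of 9 hepatocyte markers 3 were tested, of which 2 were called higher against OE normal lung and 1 against WT lung, and the list summed to between 20.6 and 26.1 FPKM in OE tumors, 1.84 and 2.17 FPKM in OE normal lungs and 3.42 and 13.0 FPKM in WT lungs. Albumin (Alb) was at 8.90, 21.7 and 13.5 FPKM in OE tumors, against 0.665 and 0.162 FPKM in OE normal lungs and 0.218 and 6.10 FPKM in WT lungs, where WT lung 2 was near tumor 1. Tat was listed at 0 in all 3 tumors and reached up to 2.48 FPKM in normal lungs. The part of this in the Cyp2c values was not tested.

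Tumors 2 and 3 also shared high levels of Cyp4v3, a fatty acid omega-hydroxylase whose human counterpart CYP4V2 is mutated in Bietti crystalline dystrophy. Cyp4v3 was at 6.66, 49.7 and 59.5 FPKM in OE tumors, against 15.9 and 14.1 FPKM in OE normal lungs and 15.02 and 14.48 FPKM in WT lungs. Tumor 1 was below and tumors 2 and 3 were above all 4 normal lungs, and the gene was not called (log2 difference 0.84, SE 0.87, limma adjusted p = 0.474, and 0.86, SE 0.87, limma adjusted p = 0.463). Without tumor 1 the differences were 1.79 and 1.81 (limma adjusted p = 0.000153 and 0.000135). In all, 6 of the 35 tested members were at least 4 times higher in both tumors 2 and 3 than in tumor 1 (the Cyp2c40 group, Cyp4v3 and Cyp3a13), as were 266 of all 14057 genes tested. The 4 genes of the Cyp2c40 group are near copies whose reads cannot be fully separated, so they are not 4 separate signals. Another 2 members, Cyp2b10 and Cyp4b1, were at least 4 times higher in tumor 1 than in both others, as were 412 of all genes tested. These 2 patterns were looked for after the values were seen. The tumors also differed in Xist, the transcript of the inactive X chromosome, which was at 0.127, 74.2 and 60.6 FPKM in OE tumors 1 to 3, 0.816 and 63.6 FPKM in OE normal lungs and 0.131 and 0.346 FPKM in WT lungs. Eif2s3y, a Y chromosome gene, was at 30.7, 0.0327 and 0.0295 FPKM in OE tumors 1 to 3. In normal lungs it was at 27.4 and 0.0903 FPKM (OE) and 29.8 and 29.8 FPKM (WT). By these 2 genes tumors 2 and 3 and OE normal lung 2 had the female pattern. The other libraries, both WT lungs among them, had the male pattern. Sex therefore cannot be told apart from other differences between tumor 1 and tumors 2 and 3. With Xist as a covariate all 4 genes of the Cyp2c40 group were called higher in OE tumors against OE normal lung (limma adjusted p = 0.0316 to 0.0481), and the calls of Cyp2c40 and Cyp2c68 against WT lung were lost.

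**Figure D5:**
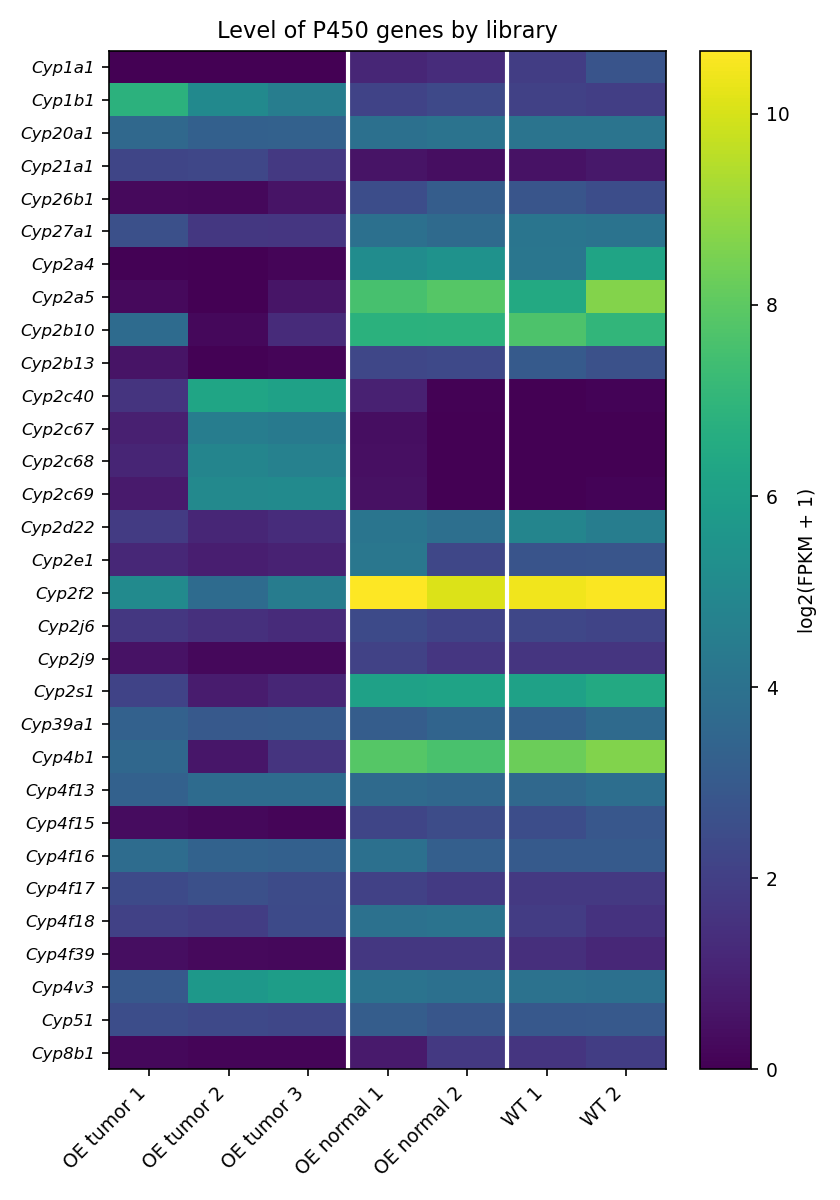
Level of the 31 named P450 genes (rows) as log2(FPKM + 1) on a color scale, in each of the 7 libraries (columns), with white lines between the groups. The tumors are dark for most Cyp2a, Cyp2b, Cyp2f and Cyp4b genes, and the Cyp2c rows and Cyp4v3 are bright in tumors 2 and 3 but not in tumor 1.

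The CYP1 enzymes oxidize polycyclic aromatic hydrocarbons, and their genes are induced through the aryl hydrocarbon receptor (Ahr). Cyp1b1 was higher and Cyp1a1 lower in the tumors. Cyp1a1 passed the expression minimum through normal lungs only, so the direction of its calls is largely set by the minimum. Cyp1b1 was at 115, 32.8 and 21.6 FPKM in OE tumors, against 3.44 and 4.12 FPKM in OE normal lungs and 3.13 and 2.96 FPKM in WT lungs. All 3 tumors were above all 4 normal lungs, with tumor 1 the highest, and mean FPKM was 14.9-fold higher than in OE normal lung and 18.5-fold higher than in WT lung. The log2 difference was 3.22 (SE 0.65, limma adjusted p = 0.0107) against OE normal lung and 3.46 (SE 0.65, limma adjusted p = 0.0085) against WT lung. These calls were lost without either lung of the normal group compared, with adjusted p up to 0.0701 and 0.0602 over the alternatives. Cyp1a1 was listed at 0 in tumors 1 and 2 and at 0.0287 FPKM in tumor 3, against 1.24 and 1.52 FPKM in OE normal lungs and 2.79 and 5.84 FPKM in WT lungs. It was called lower against OE normal lung (-1.24, SE 0.25, limma adjusted p = 0.0115) and against WT lung (-2.33, SE 0.25, limma adjusted p = 0.0012), and the first call was lost without either OE normal lung and with quantile normalization (adjusted p up to 0.0767 over the alternatives). Cyp1a2 stayed at or under 0.0127 FPKM in all libraries. Of 6 tested genes of the Ahr pathway 2 were called lower and none higher in each comparison, with medians of -0.19 and -0.10. The dehydrogenase Aldh3a1 was at 0.631, 0.343 and 0.562 FPKM in OE tumors, against 10.0 and 9.44 FPKM in OE normal lungs and 29.3 and 11.5 FPKM in WT lungs, and the quinone reductase Nqo1 was at 0.412, 2.08 and 2.46 FPKM in OE tumors, against 8.36 and 4.47 FPKM in OE normal lungs and 8.93 and 6.86 FPKM in WT lungs. Ahr itself and its partner Arnt were tested and not called.

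The 250 bases before the start sites of Cyp1a1 and Cyp1b1 are shown because these 2 Ahr targets differed in opposite directions. The direction of Cyp1a1 is largely set by the expression minimum. The sequences are from RefSeq on GRCm38.p6, at chr9:57697363-57697612 on the plus strand for Cyp1a1 and chr17:79715062-79715311 on the minus strand for Cyp1b1. Capitals mark GCGTG, the core to which the receptor binds, or its reverse complement CACGC.
Cyp1a1: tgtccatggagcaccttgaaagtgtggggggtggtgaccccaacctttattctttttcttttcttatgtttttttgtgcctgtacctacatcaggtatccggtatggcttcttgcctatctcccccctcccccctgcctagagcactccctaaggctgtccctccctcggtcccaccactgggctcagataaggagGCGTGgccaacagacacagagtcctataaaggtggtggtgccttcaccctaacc
Cyp1b1: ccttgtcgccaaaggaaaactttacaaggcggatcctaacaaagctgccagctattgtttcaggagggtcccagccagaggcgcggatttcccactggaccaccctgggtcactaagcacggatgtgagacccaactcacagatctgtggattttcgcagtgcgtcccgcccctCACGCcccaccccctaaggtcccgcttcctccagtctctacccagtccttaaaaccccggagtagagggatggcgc
Each window held 1 copy, which began 54 bases before the start in Cyp1a1 and 76 bases before it in Cyp1b1. The motif was found on either strand in 28.2% of 32851 RefSeq windows of 250 bases and in 19.8% of the 81 windows that belong to members, which covered 71 members. A match describes the letters only.

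The CYP4F enzymes hydroxylate leukotriene B4 and other long-chain fatty acids at or near the omega end, and they split into all 3 outcomes. Cyp4f15 and Cyp4f39 passed the expression minimum through normal lungs only, so the direction of their calls is largely set by the minimum. Cyp4f15 was at 0.262, 0.164 and 0.122 FPKM in OE tumors, against 3.72 and 4.51 FPKM in OE normal lungs and 4.79 and 6.43 FPKM in WT lungs, and was called lower (log2 difference -2.11 and -2.47, SE 0.17, limma adjusted p = 0.000437 and 0.000274). Cyp4f39, the counterpart of human CYP4F22, which makes the ultra-long omega-hydroxy acids of skin ceramides, was at 0.329, 0.198 and 0.172 FPKM in OE tumors, against 2.36 and 2.34 FPKM in OE normal lungs and 1.72 and 1.28 FPKM in WT lungs, and was called lower (limma adjusted p = 0.00084 and 0.00282). Cyp4f17 was slightly higher, with 4.22, 4.99 and 4.36 FPKM in OE tumors, 3.14 and 2.49 FPKM in OE normal lungs and 2.39 and 2.37 FPKM in WT lungs. Its call against OE normal lung (0.54, SE 0.14, limma adjusted p = 0.0287) was lost under 9 of 16 alternatives, among them TPM rescaling and leaving out any library but tumor 1, with adjusted p up to 0.172, and its call against WT lung (0.71, SE 0.14, limma adjusted p = 0.0112) was lost without either WT lung and with a replicate block (up to 0.0847). Cyp4f13 was at 9.02, 12.3 and 12.1 FPKM in OE tumors, 11.9 and 11.0 FPKM in OE normal lungs and 11.1 and 13.4 FPKM in WT lungs. Cyp4f16 was at 12.6, 9.12 and 8.56 FPKM in OE tumors, 14.3 and 8.49 FPKM in OE normal lungs and 6.99 and 7.21 FPKM in WT lungs, and neither gene was called, although Cyp4f16 was called higher against WT lung with Xist as a covariate (limma adjusted p = 0.0127).

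Cyp4f18, which in mouse neutrophils hydroxylates leukotriene B4, had a pattern of its own. It was at 3.20, 2.85 and 4.26 FPKM in OE tumors, 14.8 and 15.5 FPKM in OE normal lungs and 2.73 and 1.93 FPKM in WT lungs. Both OE normal lungs stood well above the other 5 libraries. The tumors were lower than OE normal lung (a log2 difference of -1.87 with SE 0.19, limma adjusted p = 0.000924) and not called against WT lung (0.41, SE 0.19, limma adjusted p = 0.132). In OE normal lung against WT lung the log2 difference was 2.29 (SE 0.21), mean FPKM was 6.50-fold higher, and the adjusted p was 0.102 with limma, or 0.04 without tumor 1, when the spread was estimated from the other 6 libraries. The macrophage marker list summed to between 994 and 3624 FPKM in OE tumors, 2982 and 4316 FPKM in OE normal lungs and 2430 and 3565 FPKM in WT lungs, and most of each normal lung sum came from Lyz2. Among the 7 markers, Cd68 was at 58.5, 20.2 and 26.9 FPKM in OE tumors, 34.4 and 34.0 FPKM in OE normal lungs and 12.2 and 8.19 FPKM in WT lungs. Emr1 was at 12.7, 4.43 and 5.03 FPKM in OE tumors, 12.3 and 12.5 FPKM in OE normal lungs and 4.18 and 2.60 FPKM in WT lungs. Chi3l3 was at 1084, 364 and 864 FPKM in OE tumors, 181 and 167 FPKM in OE normal lungs and 92.7 and 68.3 FPKM in WT lungs. These 3 were named after their values were seen: both OE normal lungs were above both WT lungs for each, as for Cyp4f18, and none was called between the normal groups (limma adjusted p = 0.348, 0.344 and 0.632). Over all 7 tested markers the median log2 difference of OE normal lung against WT lung was 0.74, and none was called. In tumor 1 these 3 were above both OE normal lungs, whereas Cyp4f18 was below both. The part of white blood cells in the Cyp4f18 values was not tested.

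In OE normal lung against WT lung no member was called, and no gene of the 14057 was (0% called). At an unadjusted p under 0.05 there were 3 members and 1208 genes in all. The groups did not overlap for 8 members higher and 8 lower, where the groups did not overlap for 52.6% of all genes tested, 29.6% higher and 23.1% lower, and the medians were 0.02 over the members and 0.02 over all genes. With 2 against 2 libraries the exact permutation test cannot give a p under 0.333.

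Members that act on retinoids and sterols were called lower, called higher or not called, depending on the enzyme. Cyp26b1, which breaks down retinoic acid, was at 0.223, 0.185 and 0.475 FPKM in OE tumors, against 4.72 and 7.91 FPKM in OE normal lungs and 5.98 and 4.70 FPKM in WT lungs. The groups were far apart (log2 difference -2.47, SE 0.23, limma adjusted p = 0.000744 against OE normal lung, and -2.29, SE 0.23, limma adjusted p = 0.000956 against WT lung). Since Cyp26b1 passed the expression minimum through normal lungs only, this direction is largely set by the minimum. Of 11 tested genes of retinoic acid synthesis and response, 7 were called lower and none higher in each comparison, with medians of -1.04 and -1.19. Aldh1a1, which makes retinoic acid, was at 42.0, 19.9 and 24.2 FPKM in OE tumors, against 516 and 519 FPKM in OE normal lungs and 657 and 629 FPKM in WT lungs. The receptor gene Rarb, itself induced by retinoic acid, was at 0.401, 0.426 and 0.360 FPKM in OE tumors, against 3.73 and 7.11 FPKM in OE normal lungs and 4.78 and 5.43 FPKM in WT lungs. The retinol-oxidizing dehydrogenases Adh1 (log2 difference -2.19 and -1.99, limma adjusted p = 0.0014 and 0.00194) and Adh7 (-2.86 and -2.35, limma adjusted p = 0.0003 and 0.000394) were called lower as well.

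Cyp27a1, the mitochondrial sterol 27-hydroxylase, was at 4.99, 2.29 and 2.22 FPKM in OE tumors, against 14.30 and 12.03 FPKM in OE normal lungs and 16.4 and 15.8 FPKM in WT lungs. Every tumor was below every normal lung (a log2 difference of -1.83 with SE 0.29, limma adjusted p = 0.0046, and -2.10, SE 0.29, limma adjusted p = 0.00285). Cyp51, the lanosterol demethylase of cholesterol synthesis, was at 4.69, 4.17 and 3.85 FPKM in OE tumors, 7.93 and 6.30 FPKM in OE normal lungs and 6.65 and 6.82 FPKM in WT lungs. Its calls (-0.63, SE 0.15, limma adjusted p = 0.0186, and -0.57, SE 0.15, limma adjusted p = 0.0268) were lost without tumor 2, without tumor 3, with quantile normalization (log2 difference -0.30 and -0.34) and with a replicate block. Against OE normal lung the call was also lost without OE normal lung 1 and with only the compared groups fitted, and against WT lung without either WT lung and with Xist as a covariate. The highest adjusted p was 0.134 (quantile normalization) against OE normal lung and 0.155 (without WT lung 2) against WT lung. Of 20 tested cholesterol synthesis genes, 1 was called higher and 3 lower against OE normal lung (median -0.21), and 2 higher and 4 lower against WT lung (median -0.32). Squalene epoxidase (Sqle), which acts shortly before Cyp51, was at 5.64, 6.11 and 6.35 FPKM in OE tumors, against 15.2 and 11.2 FPKM in OE normal lungs and 10.7 and 12.6 FPKM in WT lungs, whereas the decarboxylase Mvd was called higher (0.90 and 1.15, limma adjusted p = 0.00303 and 0.00128).

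The sterol 12-alpha-hydroxylase gene Cyp8b1 was low everywhere, with 0.168, 0.0977 and 0.119 FPKM in OE tumors, 0.686 and 2.43 FPKM in OE normal lungs and 2.17 and 2.80 FPKM in WT lungs. OE normal lung 1 was nearer to the tumors than the other normal lungs. Cyp8b1 was called lower in both comparisons (limma adjusted p = 0.0311 and 0.0079), but passed the expression minimum through normal lungs only, which largely sets this direction. Against OE normal lung the call was lost under 8 of 16 alternatives, among them without tumor 2, tumor 3, OE normal lung 2 or either WT lung (adjusted p up to 0.351), and against WT lung without WT lung 2 (up to 0.0646). The oxysterol hydroxylase genes Cyp39a1 and Cyp7b1 were not called. Cyp39a1 was at 8.89, 6.82 and 7.02 FPKM in OE tumors, 7.85 and 9.94 FPKM in OE normal lungs and 8.59 and 11.7 FPKM in WT lungs. Cyp7b1, outside the rule for named genes, ranged between 0.374 and 1.75 FPKM in OE tumors and between 1.90 and 2.82 FPKM in the normal lungs. Without tumor 1 Cyp7b1 was called lower (log2 difference -1.12 and -1.11, limma adjusted p = 0.00568 and 0.00604), and against OE normal lung also with TPM rescaling. None of 6 genes of oxysterol and bile acid metabolism was called in either comparison, with medians of 0.29 and 0.28.

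Cyp21a1, the steroid 21-hydroxylase, was called higher. It passed the expression minimum through tumors only, so the direction of its calls is largely set by the minimum. Cyp21a1 was at 3.72, 3.85 and 2.41 FPKM in OE tumors, against 0.469 and 0.324 FPKM in OE normal lungs and 0.437 and 0.623 FPKM in WT lungs. The groups did not overlap (log2 difference 1.62, SE 0.20, limma adjusted p = 0.00172 against OE normal lung, and 1.49, SE 0.20, limma adjusted p = 0.00234 against WT lung). Of its 50-base stretches 23.69% also occur in the neighbouring pseudogene Cyp21a2-ps, so part of its reads may be shared. Cyp20a1, an orphan P450 without an agreed substrate, was at 11.2, 8.61 and 8.80 FPKM in OE tumors, 14.4 and 15.8 FPKM in OE normal lungs and 15.9 and 16.3 FPKM in WT lungs. Its calls (log2 difference -0.62, SE 0.14, limma adjusted p = 0.0185, and -0.71, SE 0.14, limma adjusted p = 0.0116) were lost with a replicate block, without tumor 2, tumor 3 or either OE normal lung in the comparison with OE normal lung, and without either WT lung in that with WT lung, with adjusted p up to 0.117 and 0.0905 over the alternatives.

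Of 5 genes whose products pass electrons toward P450s (Por, Cyb5b, Cyb5r3, Fdx1 and Fdxr), 2 were called lower in each comparison, where 38.1% and 38.2% of all genes were called. These were Por and Fdxr against OE normal lung and Por and Fdx1 against WT lung. Por, the microsomal reductase, was at 38.5, 47.7 and 46.0 FPKM in OE tumors, against 135 and 115 FPKM in OE normal lungs and 133 and 139 FPKM in WT lungs (log2 difference -1.49, SE 0.14, limma adjusted p = 0.00075, and -1.61, SE 0.14, limma adjusted p = 0.000554). Of 7 redox partner genes 1 was called higher and 3 lower in each comparison, with medians of -0.22 and -0.20. Pgrmc1, a heme-binding protein that associates with P450s, was at 20.7, 7.29 and 9.73 FPKM in OE tumors, against 123 and 115 FPKM in OE normal lungs and 147 and 156 FPKM in WT lungs. Its relative Pgrmc2 was called higher, with 36.1, 72.5 and 66.4 FPKM in OE tumors, against 19.02 and 21.2 FPKM in OE normal lungs and 20.6 and 22.6 FPKM in WT lungs. Of 11 tested nuclear receptors and other factors that control P450 genes, 2 were called higher and 1 lower in each comparison, with medians of 0.03 and 0.10. Cebpa, a factor of liver and lung epithelium, was at 340, 348 and 355 FPKM in OE tumors, against 42.1 and 26.2 FPKM in OE normal lungs and 34.9 and 29.3 FPKM in WT lungs. Pparg was called higher (1.42 and 1.78, limma adjusted p = 0.0294 and 0.0137) and the glucocorticoid receptor Nr3c1 lower (-0.64 and -0.59, limma adjusted p = 0.0111 and 0.0151).

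The remaining 57 members were below the expression minimum and were not tested. Of these, 9 were listed at 0 in all 7 libraries, among them Cyp11b1, Cyp11b2 and Cyp19a1 of steroid synthesis, 25 stayed under 0.1 FPKM and 20 had their highest value between 0.1 and 1 FPKM. Another 3 reached 1 FPKM in a single library. The highest value was that of Cyp11a1, the side-chain cleavage enzyme of steroid synthesis, with 3.37 FPKM in OE normal lung 2 and at most 0.482 FPKM elsewhere. Cyp4f40 was at 0.923, 0.693 and 0.446 FPKM in OE tumors, against 0.124 and 0.0746 FPKM in OE normal lungs and 0.112 and 0.0471 FPKM in WT lungs. Both genes were singled out after their values were seen. The CYP3A genes, which dominate drug metabolism in liver, held 1 tested member of 7, and this one, Cyp3a13, ranged from 0.417 to 2.29 FPKM in OE tumors and from 1.32 to 2.51 FPKM in the normal lungs and was not called. None of the 4 CYP4A members was tested, all 4 being listed at 0 in the tumors, and they summed to between 0.46 and 0.948 FPKM in the normal lungs.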

How the data were processed

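RNA was measured by sequencing in 7 libraries (3 OE tumors, 2 OE normal lungs, 2 WT lungs), grouped by their titles. The deposited values are FPKM per gene, made by the authors with TopHat or TopHat2 and Cufflinks 2.0.0 on mm9 (per the submitters' processing notes). That tool and the range of the values gave the unit. No source names the annotation, the strand setting or how many reads each library had, so depth is unknown. From the spacing of low values, depth relative to tumor 1 was between 1.20 and 1.87 in the other libraries. Of 22474 rows, 27 with a date for a symbol were left out.

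Values were taken as log2(FPKM + 1), which understates changes of low genes. Genes that reached 1 FPKM in 2 or more libraries entered a limma fit (version 3.58.1, R 4.3.3, eBayes with trend, 3 groups with a shared spread, two-sided, Benjamini-Hochberg adjusted over 14057 genes). The procedure was tested on simulated data. Exact permutation tests used scipy 1.17.1. Members, lists and tests were chosen with earlier results of these data known. Values are printed for members with a mean of at least 5 FPKM in a group, or called with a mean of at least 1 FPKM, and for up to 4 called genes per list. Transcripts were GENCODE on GRCm38, where 90 members matched, and promoters RefSeq. No mm9 genome was used. Alternatives tried were median-of-ratios scaling, TPM rescaling, quantile normalization, a pseudocount of 0.1, a minimum of 5 FPKM or none, a fit without trend, a fit of the compared groups alone, a replicate block, Xist as a covariate, and leaving out each library. Figures were drawn with matplotlib 3.10.9.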

Additional observations from a re-analysis of the deposited data

How the results depend on the processing

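Of the calls of named members, 14 of 23 against OE normal lung and 15 of 24 against WT lung held under all of up to 17 alternatives and none reversed. Those that held include Cyp2f2, Cyp2a5, Cyp2a4, Cyp4b1, Cyp2s1, Cyp2b13, Cyp2d22, Cyp26b1, Cyp27a1 and Cyp21a1 in both comparisons. Of these, Cyp2a5, Cyp2a4, Cyp2b13 and Cyp26b1 passed the minimum through normal lungs only and Cyp21a1 through tumors only. The direction of their calls is therefore largely set by the minimum. With a minimum of 5 FPKM, 23 members were tested and 15 were called in tumors against OE normal lung and 15 against WT lung. Among those tested, Cyp2c68 lost its call against WT lung at that minimum (adjusted p = 0.0507). Leaving out 1 library gave between 16 and 29 called members against OE normal lung, between 15 (without WT lung 2) and 28 (without tumor 1) against WT lung, and between 0 and 1 for OE normal lung against WT lung, where the 1 was Cyp4f18 without tumor 1. Members called higher varied between 1 and 8 in these fits in either comparison with the tumors. The scaling moved the balance of all calls. Higher calls were 34.5% of all calls against OE normal lung, 44.6% with median-of-ratios scaling, 18.2% with TPM rescaling and 56% with quantile normalization, and 39.4%, 45%, 30.8% and 54.7% against WT lung. The median of all genes was -0.33 with TPM rescaling and 0.13 with quantile normalization against OE normal lung, where it was -0.11 unscaled, and -0.16 and 0.11 against WT lung, where it was -0.06. Members called were 3 higher and 21 lower with TPM rescaling and 6 higher and 15 lower with quantile normalization against OE normal lung, and 6 higher and 20 lower and 7 higher and 16 lower against WT lung. With a replicate block 17 members were called against OE normal lung, 17 against WT lung and 0 between the normal groups. The member counts of these alternative fits stand without the share of all genes called in the same fits. They are therefore a description and not a result about the members. Same-numbered libraries had deviations from their group mean correlated between -0.03 and 0.03, and only 2 numbers are shared. With 2 libraries in each normal group these deviations mirror each other, so the correlations cannot decide whether libraries were paired. No pairing is read from the replicate numbers. The cause of these shifts was not tested. The FPKM files carry no read counts, so counting error is not known, and low members such as Cyp8b1 and Cyp1a1 are limited by it.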
